A study of Mus musculus with 12 samples.

Results

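The interferon response genes Ifih1, Oas1a, Oasl2, Ifit1, Ifit3, Isg15, Irf7, Irf1 and Stat2 were followed through the differentiation of mouse embryonic stem cells toward cardiomyocytes. They were taken by name, as every non-control probe whose accession belongs to one of these genes, and make up 9 of the 19096 gene symbols on the array and 11 of its 41174 probes. All 9 had a probe bright enough to be tested among 20875 tested genes. There were 3 groups of 4 one-colour Agilent arrays, read as the brightness of Cy3-labelled RNA: undifferentiated mouse embryonic stem cells (mESC), and differentiating cells at day 9 and day 14. The culture plates carried a coat of crosslinked elastin-like polypeptide (ELP), an artificial protein that copies elastin's repeats, and the differentiating cells were kept on it first in medium without LIF, the cytokine that holds mouse stem cells undifferentiated, and then in a serum-replacement medium. No interferon, virus or cardiac factor is named among the agents given to any group.

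The labels name neither the stem cell line nor any sorting, and total RNA was taken from the whole cultures, so each value is a mean over all cell types in the dish. The same culture text is given for every sample, including mESC, and nothing states that replicates came from different cultures. The p-values therefore describe only the spread among these 12 samples, and that spread may be technical. As every group had its own slide and scan, effects of slide or scan and effects of group cannot be told apart. Arrays grew brighter with time: the 75th percentile of signal ranged from 345.9 to 386.2 for mESC, from 395.1 to 438.4 for day 9 and from 463.4 to 507.7 for day 14. Per array, 59.5% to 67.9% of probes were well above background. The labels were checked against marker genes. Pou5f1, a core factor of pluripotency, changed by −5.83 ± 0.21 (log2, SE) at day 9 and by −7.88 at day 14, and Nanog, another, by −7.24 ± 0.11 and −8.07. Cardiac markers rose on both days in 9 of 9 cases, among them Myh6, a cardiac myosin heavy chain, by 7.28 ± 0.31 at day 9.

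Interferons are secreted proteins that cells release on sensing viral nucleic acid. Through their receptors and the Janus kinases they activate STAT factors. STAT2 and IRF9 belong to the complex that binds the interferon-stimulated response element of many genes, and interferon gamma acts through gamma-activated sites. Ifih1 encodes MDA5, a cytosolic sensor of long double-stranded RNA. Irf7 and Irf1 encode transcription factors of the interferon genes and their targets, and Stat2 encodes a subunit of the factor that carries the signal. Oas1a encodes a synthetase of 2′-5′ oligoadenylates, which is activated by double-stranded RNA, and Oasl2 encodes a related protein. Ifit1 and Ifit3 encode proteins that bind viral RNA or assist in its binding, and Isg15 encodes a ubiquitin-like protein that is conjugated to other proteins. Pluripotent stem cells are known for a weak response to interferon compared with differentiated cells.

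The promoters of the 9 genes were read from RefSeq windows of GRCm38.p6, which run from 250 bases before to 50 bases after a start site. All 9 genes matched, with 10 windows in all, because Irf1 has 2. The core of the interferon-stimulated response element, GAAA, any 2 bases and GAAA again, was searched on both strands and was found in 3.44% of all 32851 windows of this length and in those of 6 of the 9 genes. A longer form, the core followed by CT, was in 0.271% of windows and in those of Oas1a, Ifit1 and Ifit3. The gamma-activated site TTCNNNGAA, which reads the same on both strands, was in 8.30% of windows and in those of Oas1a and Irf1. Counted by gene, the 3 elements were in 3.99%, 0.303% and 9.55% of all 27025 genes with a window, in the same order. None of the 3 was in the windows of Oasl2 or Irf7. The stretches below are shown because they carry these matches, 5′ to 3′ on the gene's own strand. Capitals mark the core element in either orientation, and in Irf1 the gamma-activated letters. In Oas1a 2 core matches overlap, and in Isg15 3 overlap, so each forms 1 run of capitals.
Ifih1, chr2:62646208-62646229, minus strand: agaatcGAAACAGAAAccgatc
Oas1a, chr5:120907526-120907560, minus strand: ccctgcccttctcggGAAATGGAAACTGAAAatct
Ifit1, chr19:34640770-34640828, plus strand: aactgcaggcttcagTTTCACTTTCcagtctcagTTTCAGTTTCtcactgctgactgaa
Ifit3, chr19:34583358-34583431, plus strand: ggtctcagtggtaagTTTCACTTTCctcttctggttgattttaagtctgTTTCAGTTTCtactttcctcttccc
Isg15, chr4:156200860-156200911, minus strand: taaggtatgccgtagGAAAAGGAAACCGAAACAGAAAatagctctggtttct
Irf1, chr11:53769909-53769947, plus strand: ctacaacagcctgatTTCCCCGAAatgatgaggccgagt
Stat2, chr10:128270261-128270300, plus strand: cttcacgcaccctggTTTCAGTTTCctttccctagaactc

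In Ifit1 the core matches span positions −104 to −95 and −85 to −76 from the start site, and in Ifit3 positions −156 to −147 and −122 to −113. The overlapping matches of Oas1a lie between −20 and −5 and those of Isg15 between −78 and −57. Stat2 has its match farther out, at −222 to −213, and Ifih1 has it after the start, at 33 to 42. The gamma-activated letters lie at −90 to −82 in Irf1 and at −98 to −90 in Oas1a, outside the stretch shown. These are descriptions of letters, and no binding was measured.

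Most of the effector genes and the sensor were dim or undetected in mESC and higher on both days, while Oas1a ran the other way. A gene is called here when limma's adjusted p (Benjamini-Hochberg over all tested genes) was under 0.05 and its log2 fold change was at least 1 in size. At day 9 against mESC, 5 of the 9 were called higher and 1 lower, where 20.0% of all tested genes were called higher, 21.0% lower and 41.0% either way. At day 14 against mESC, 6 were called higher and 1 lower, against 22.8% higher, 24.1% lower and 46.9% either way over all genes. Between day 9 and day 14, 5 were called higher and 0 lower, where 10.2% of genes were higher, 3.61% lower and 13.8% either way. In that last comparison limma's unadjusted p was under 0.05 for 7 genes with a higher and 1 with a lower value, Stat2. The median log2 fold change of the 9 genes was 1.59, 3.74 and 1.33 in these comparisons, and that of all tested genes was −0.16, −0.19 and −0.09. The medians against mESC are the fitted values of Oasl2 and Ifit1, which were below background on all mESC arrays, so their size is uncertain. With another background correction (normexp, offset 50) the medians of the 9 genes were 0.11, 0.82 and 0.57. Those of all tested genes were then −0.15, 0.10 and 0.16. The 3 comparisons share their arrays pairwise. Ifih1, Oasl2, Ifit1, Ifit3, Isg15 and Irf7 passed the filter on dim probes through the differentiated groups alone, so a difference was built into their being tested.

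**Figure D1:**
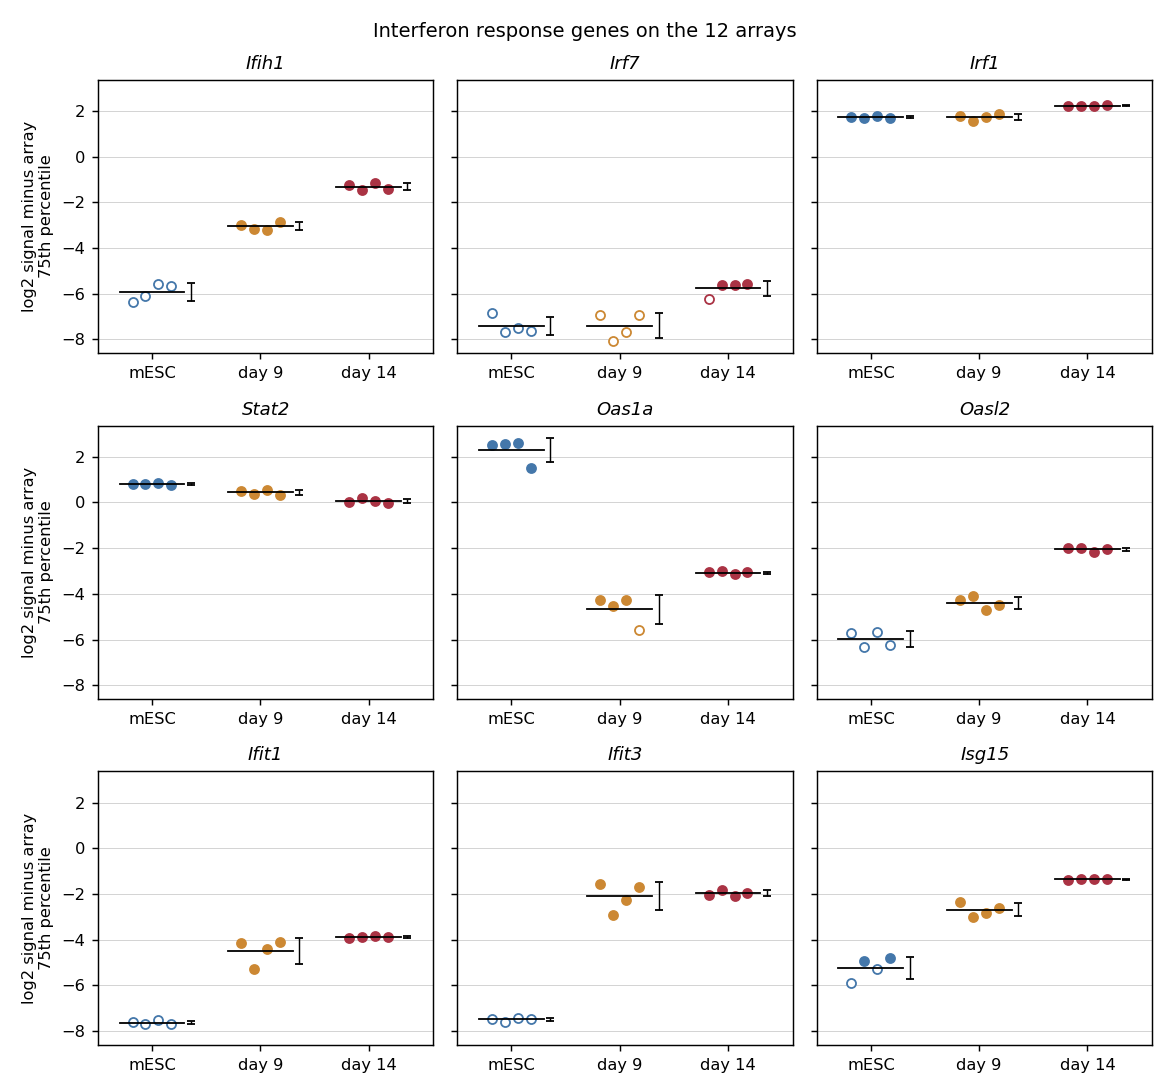
Each panel shows 1 gene on the 12 arrays as log2 processed signal minus the array's 75th percentile (y axis) by group (x axis). Points are arrays, open where the probe was not well above background, lines are group means and bars are the SD of 4 arrays. Levels of different genes come from different probes and are not comparable. Ifih1, Oasl2, Ifit1, Ifit3 and Isg15 are higher on all day 9 and day 14 arrays than on any mESC array, and Oas1a is lower.

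The sensor Ifih1 rose in 2 steps. Its log2 level relative to the array's 75th percentile, the scale of all levels below, was −6.36, −6.10, −5.56 and −5.65 on the mESC arrays, −2.99, −3.15, −3.19 and −2.84 at day 9 and −1.22, −1.46, −1.16 and −1.43 at day 14. No 2 groups overlapped, and the probe was not well above background on any mESC array. Against mESC the signal was therefore at least 4.98-fold higher at day 9 (adjusted p = 1.35e-08) and at least 16.5-fold higher at day 14 (adjusted p = 1.68e-10). Such a bound sets the mean of the bright group against the dimmest signal well above background on the arrays of the dim group. From day 9 to day 14 Ifih1 rose by 1.72 ± 0.17 (adjusted p = 4.70e-06). A second Ifih1 probe was not well above background on any of the 12 arrays, so these values rest on 1 probe.

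Among the transcription factors, only Irf7 was called in any comparison, and it was dim throughout. Irf7, the factor that amplifies interferon production, stood at −6.85, −7.67, −7.49 and −7.62 in mESC, at −6.94, −8.06, −7.65 and −6.93 at day 9 and at −6.24, −5.60, −5.61 and −5.59 at day 14. The mESC and day 9 arrays overlapped and were all below background, and the day 14 arrays were higher, 3 of them above background. The fitted change at day 14 was 1.65 ± 0.28 against mESC (adjusted p = 0.000171) and 1.64 ± 0.28 against day 9 (adjusted p = 0.000379). The day 14 mean lay below the mean of the dimmest signals well above background on the mESC arrays and on the day 9 arrays, so no fold is given.

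Irf1, a factor that also answers to interferon gamma, was bright and nearly level. Its values were 1.73, 1.71, 1.78 and 1.71 in mESC, 1.79, 1.55, 1.73 and 1.85 at day 9, and 2.22, 2.22, 2.23 and 2.25 at day 14. The first pair of groups overlapped, with a difference of 0.00 and a 95% interval of −0.13 to 0.13, while all day 14 arrays lay above both. The difference at day 14 was 0.50 ± 0.06 against mESC (adjusted p = 6.52e-06), below the size required for a call, and 0.50 ± 0.06 against day 9 (adjusted p = 1.95e-05). A dimmer second probe of Irf1 gave −0.02 ± 0.11 at day 9 and 0.44 ± 0.11 at day 14.

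Stat2 went in the opposite direction in small steps. Its arrays read 0.81, 0.82, 0.85 and 0.76 in mESC, 0.49, 0.39, 0.55 and 0.33 at day 9 and 0.04, 0.20, 0.07 and −0.01 at day 14. No 2 groups overlapped, in the order mESC, day 9, day 14 from high to low. The differences from mESC were −0.37 ± 0.06 at day 9 (adjusted p = 0.000127) and −0.74 ± 0.06 at day 14 (adjusted p = 2.60e-07), both too small for a call. From day 9 to day 14 Stat2 differed by −0.37 ± 0.06 (adjusted p = 0.000266). With each array scaled to its median instead, the day 14 difference was −1.05 (adjusted p = 1.28e-08) and passed.

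Oas1a was called lower on both days against mESC, the only one of the 9 genes apart from Stat2 at day 14 with median scaling. The gene read 2.52, 2.55, 2.59 and 1.49 in mESC, −4.28, −4.53, −4.27 and −5.60 at day 9 and −3.06, −3.02, −3.13 and −3.06 at day 14. The mESC arrays were far above all others, replicate 4 of mESC and replicate 4 of day 9 were the low arrays of their groups, and day 14 lay between mESC and day 9 with no overlap. Oas1a fell by 6.96 ± 0.31 at day 9 (124-fold, adjusted p = 1.35e-09) and by 5.36 ± 0.31 at day 14 (40.9-fold, adjusted p = 1.16e-08) against mESC. Between the days it rose by 1.60 ± 0.31 (adjusted p = 0.000912), a change of 0.81 and no call under another background correction. Mouse Oas1 genes are closely related copies in a cluster, and whether the probe also binds RNA of a copy was not tested, since probe sequences are not used here.

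Oasl2 rose from below background in mESC, and rose again after day 9. Its levels were −5.70, −6.31, −5.68 and −6.22 in mESC, −4.28, −4.09, −4.70 and −4.48 at day 9 and −2.00, −2.01, −2.16 and −2.03 at day 14. The 3 groups did not overlap. Against mESC Oasl2 was at least 1.96-fold higher at day 9 (adjusted p = 2.65e-06) and at least 9.92-fold higher at day 14 (adjusted p = 6.19e-10). The step between the days was 2.34 ± 0.16 (adjusted p = 3.95e-07).

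Ifit3 was near its day 14 level by day 9, while Ifit1 had a mean signal of 19.5 at day 9 and 32.6 at day 14. Ifit3 stood at −7.48, −7.59, −7.43 and −7.46 in mESC, at −1.55, −2.91, −2.25 and −1.68 at day 9 and at −2.02, −1.81, −2.08 and −1.94 at day 14. All mESC arrays were below background and far below the rest, and the day 9 arrays, spread widely, overlapped those of day 14. Ifit3 was at least 9.60-fold higher at day 9 (adjusted p = 1.32e-09) and at least 10.5-fold higher at day 14 (adjusted p = 8.57e-10). Its difference between the days was 0.14 with a 95% interval of −0.39 to 0.67 (adjusted p = 0.641), and it ran from −0.14 to 0.32 when single arrays were left out.

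Ifit1 read −7.59, −7.71, −7.53 and −7.68 in mESC, −4.14, −5.29, −4.42 and −4.09 at day 9 and −3.91, −3.89, −3.84 and −3.88 at day 14. The mESC arrays were below background, and each day 14 array was above the highest at day 9. The bounds for Ifit1 were at least 1.83-fold at day 9 (adjusted p = 5.78e-08) and at least 2.79-fold at day 14 (adjusted p = 9.64e-09). Between the days Ifit1 differed by 0.61 ± 0.21 (adjusted p = 0.0278), which was not called. Probes for the close copies Ifit3b, Ifit1bl1 and Ifit1bl2 were not well above background on any array.

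Among the 6 genes called higher at day 14, Isg15 alone was well above background on any mESC array, on 2 of 4. Its levels were −5.90, −4.95, −5.30 and −4.78 in mESC, −2.34, −3.00, −2.84 and −2.62 at day 9 and −1.40, −1.35, −1.34 and −1.36 at day 14. The groups rose in that order without overlap, and the day 14 arrays nearly coincided. Isg15 rose by 2.54 ± 0.22 at day 9 (adjusted p = 4.39e-07) and by 3.87 ± 0.22 at day 14 (adjusted p = 7.83e-09) against mESC. The gain between the days was 1.33 ± 0.22 (adjusted p = 0.000247).

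**Figure D2:**
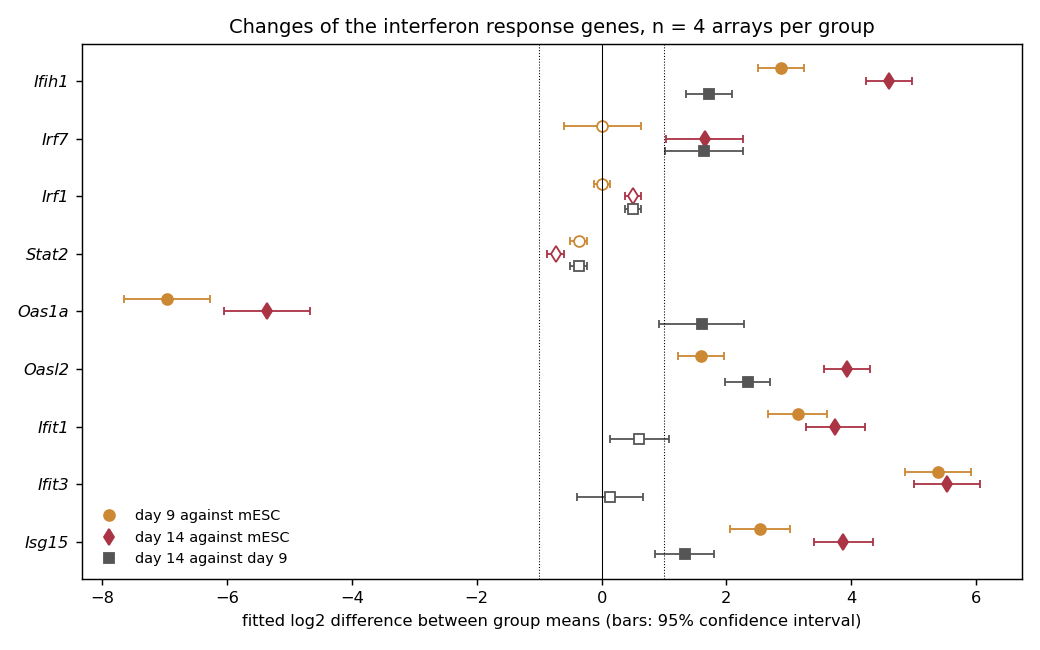
Fitted log2 differences between group means for the 9 genes (x axis, with 95% confidence intervals from limma, 4 arrays per group), filled where called and open where not. Dotted lines mark a log2 difference of 1 in size. Oas1a lies at −6.96 and −5.36 against mESC and at 1.60 between the days, and Ifit3 lies at 5.39 and 5.53 against mESC but at 0.14 between the days. For genes below background in a group the plotted difference is a fitted value, and the bounds in the text apply.

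The 9 genes differed in where the groups stood relative to each other. Groups did not overlap in 7 of the 9 genes at day 9 against mESC, where the share over all genes was 78.6%, in 9 of 9 at day 14 against mESC, where it was 83.9%, and in 8 of 9 between the days, where it was 57.4%. At day 9, replicate 2 had the lowest value of its group in 5 genes, Ifit1, Ifit3, Isg15, Irf7 and Irf1. The signals of the effectors were low in absolute terms, with a mean of 19.5 ± 6.29 (SD, n = 4) for Ifit1 and 20.2 ± 4.27 for Oasl2 at day 9. With the normexp background correction, which adds an offset of 50 to every intensity, the day 9 changes of Ifih1 (0.53), Oasl2 (0.11), Ifit1 (0.30) and Isg15 (0.55) were not called, nor were Ifit1 (0.82) and Irf7 (0.42) at day 14, or Isg15 (0.97) and Irf7 (0.57) between the days.

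By the root mean square difference of values centred on each gene's mean over the 12 arrays, the tested genes most like each member were named. Ifih1 was closest to Mmp23 (0.21), Sema3a (0.22) and Gabra3 (0.23), and Ifit3 to Slc40a1 (0.17), the iron exporter ferroportin, Snhg18 (0.19) and Dleu2 (0.20). Ifit1 was closest to AW551984 (0.15), Hoxa11 (0.15) and Cdon (0.17), Isg15 to Klf14 (0.23), Trpc4 (0.26) and Cxcl1 (0.27), and Oasl2 to Sowahd (0.23), Matn2 (0.24) and Fndc5 (0.25). Oas1a was closest to Phf11a (0.32), Gm38423 (0.34) and its family member Oas1f (0.41). The dim Irf7 came closest to Pcdh19 (0.29), 1600025M17Rik (0.31) and Itih4 (0.31). For the nearly level pair, the values were smallest: Irf1 lay closest to Tlcd1, Plin2 and Cyb561a3 (0.05 to 0.06) and Stat2 to Dynlt1a, Cyb5r3 and Cog1 (0.06 each). The 12 arrays share 3 groups, so likeness here means mainly a like set of 3 group means.

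A further 144 genes of the pathway were listed by role, of which 129 were on the array and 109 were tested. At day 9 against mESC 26 were called higher (23.9%) and 32 lower (29.4%), at day 14 against mESC 46 higher (42.2%) and 25 lower (22.9%), and between the days 33 higher (30.3%) and 1 lower (0.917%). Over all tested genes the shares called higher and lower were 20.0% and 21.0%, 22.8% and 24.1%, and 10.2% and 3.61%. Against mESC, the share higher at day 9 and the share lower at day 14 were near the background. Several of the list counts that follow are also near it. The share lower at day 9 was above it, and 7 of those 32 genes are of the OAS family. The median log2 fold change of the pathway genes was 0.04, 0.41 and 0.54. With normexp 15, 28 and 13 were called higher and 24, 13 and 0 lower. In that setting the calls higher were 0, 3 and 2 for the sensors and adaptors, 1, 3 and 0 for ISG15 conjugation, 6, 9 and 5 for the other antiviral effectors and 1, 4 and 4 for antigen presentation. The single gene lower between the days was Iigp1, an interferon-inducible GTPase. None of these calls turned direction under any other scaling or background correction.

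**Figure D3:**
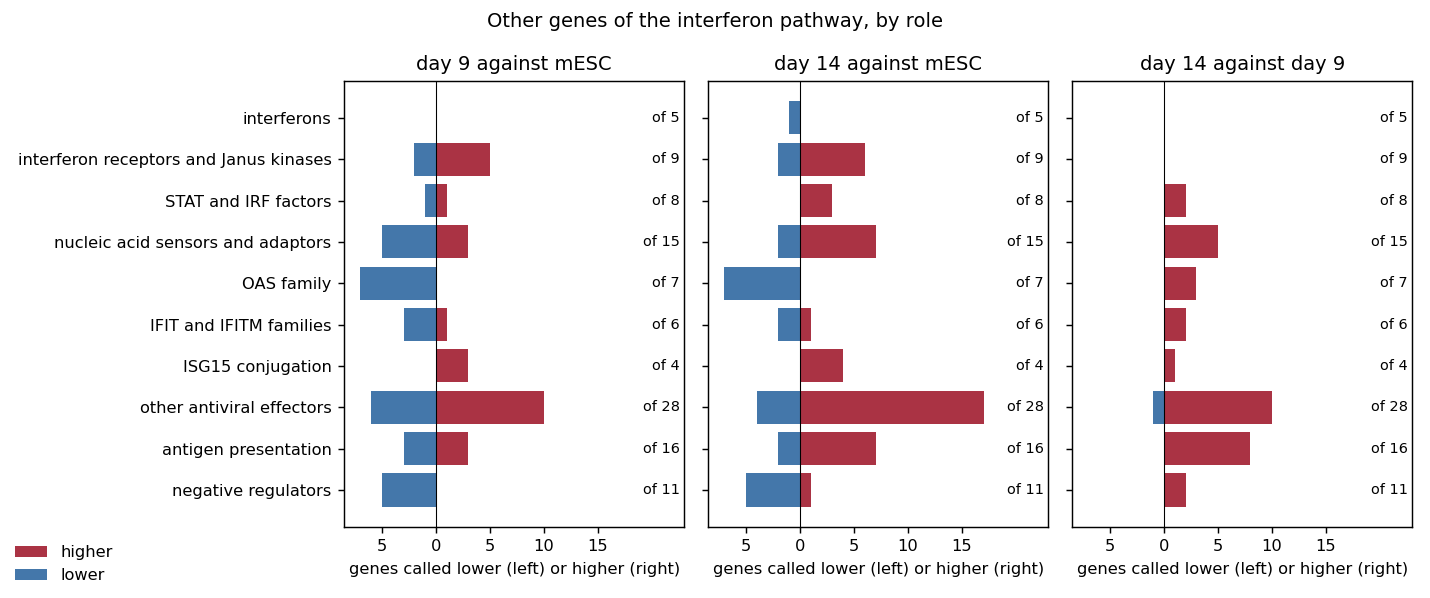
Number of tested genes called higher (red, right) or lower (blue, left) in each of 10 lists of the interferon pathway, without the 9 genes, in the 3 comparisons of 4 against 4 arrays. The figure at the right of each row is the number tested. The OAS family list has 7 of 7 genes lower against mESC on both days, and no list except the other antiviral effectors has a gene lower between the days.

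Interferon genes themselves were not seen to rise, but of the 19 listed only 12 had a named probe on the array. Ifnb1, Ifna2, Ifna4, Ifna12, Ifne, Ifnk and Ifng were not well above background on any of the 12 arrays. The tested genes Ifna5, Ifna9, Ifna13 and Ifnz were so on all arrays of every group, mESC included. Ifnl3 was so on 0 mESC, 3 day 9 and 4 day 14 arrays. Of 5 tested interferon genes 0 were called higher in any comparison, and limma's unadjusted p was under 0.05 for 1 higher gene at day 9 against mESC and for 0 in the other comparisons. Ifna13 fell by 1.10 ± 0.15 at day 14 against mESC. Interferon made by few cells, or at a time not sampled, would not be seen here.

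Receptors moved mostly upward against mESC, while the Janus kinases were split. Of the 9 genes of both kinds, 5 were called higher and 2 lower at day 9, and 6 and 2 at day 14. Between the days 0 were called, and 6 had a higher value at an unadjusted p under 0.05 in limma. Ifngr2, a subunit of the interferon gamma receptor, rose by 3.09 ± 0.07 at day 9 and by 3.81 ± 0.07 at day 14. Il10rb, a subunit of the receptors for interleukin 10 and interferon lambda, rose by 2.34 and 3.15, and Ifngr1 by 1.67 and 2.07. Ifnlr1, the other subunit of the interferon lambda receptor, fell by 2.17 and 1.93.

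Of 8 other STAT and IRF factors, 1 was called higher and 1 lower at day 9, 3 and 0 at day 14, and 2 and 0 between the days. Irf2, an antagonist of Irf1 at many promoters, rose by 3.24 ± 0.13 and 3.74 ± 0.13 against mESC. Irf8, a factor of myeloid cells, fell by 2.21 ± 0.09 at day 9 and stood 1.07 ± 0.09 above mESC at day 14, a rise of 3.28 ± 0.09 between the days. Irf5 rose by 2.00 at day 14 and by 1.06 between the days.

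Nucleic acid sensors and their adaptors were split, with 3 of 15 higher and 5 lower at day 9, 7 and 2 at day 14, and 5 and 0 between the days. Ddx58, which encodes the RNA sensor RIG-I, was called higher on both days against mESC. No size is given, because the probe used was below background on all mESC arrays while another Ddx58 probe was above it on some. Mavs, the mitochondrial adaptor through which RIG-I and MDA5 signal, fell by 1.53 ± 0.06 and 1.55 ± 0.06, and Trim25, a ubiquitin ligase linked to RIG-I, by 1.90 and 1.72. Tlr7, an endosomal sensor of single-stranded RNA, was at least 10.5-fold higher at day 14 than in mESC and at least 13.7-fold higher than at day 9. Sting1 and Cgas, of the DNA-sensing route, changed by −1.29 ± 0.12 and −1.22 ± 0.09 at day 9 against mESC. They then rose by 2.36 ± 0.12 and 1.36 ± 0.09 between the days. At day 14 Sting1 stood 1.07 ± 0.12 above mESC, and Cgas, at 0.14 ± 0.09, was not called.

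Most genes related to Oas1a were also lower. Of the 8 other tested genes of the OAS family, 7 were called lower at day 9 and the same number at day 14 against mESC, and Oasl2, described above, was called higher. With normexp 6 and 3 of the 7 were called lower. Oas1f changed by −6.75 ± 0.08 and −5.51 ± 0.08 (adjusted p = 6.19e-14 and 1.98e-13). Oas1d was well above background in mESC and below background on every day 9 and day 14 array, at least 46.9-fold and at least 57.0-fold lower. Oasl1, a synthetase-like gene with no enzyme activity, was at least 18.3-fold lower at day 9 and fell by 3.50 ± 0.25 at day 14, and Oas2 was at least 8.76-fold lower at day 9. Between the days 3 of the 7 genes rose, and 0 with normexp, among them Oasl1, at least 1.62-fold, and Oas1f, by 1.24 ± 0.08.

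**Figure D4:**
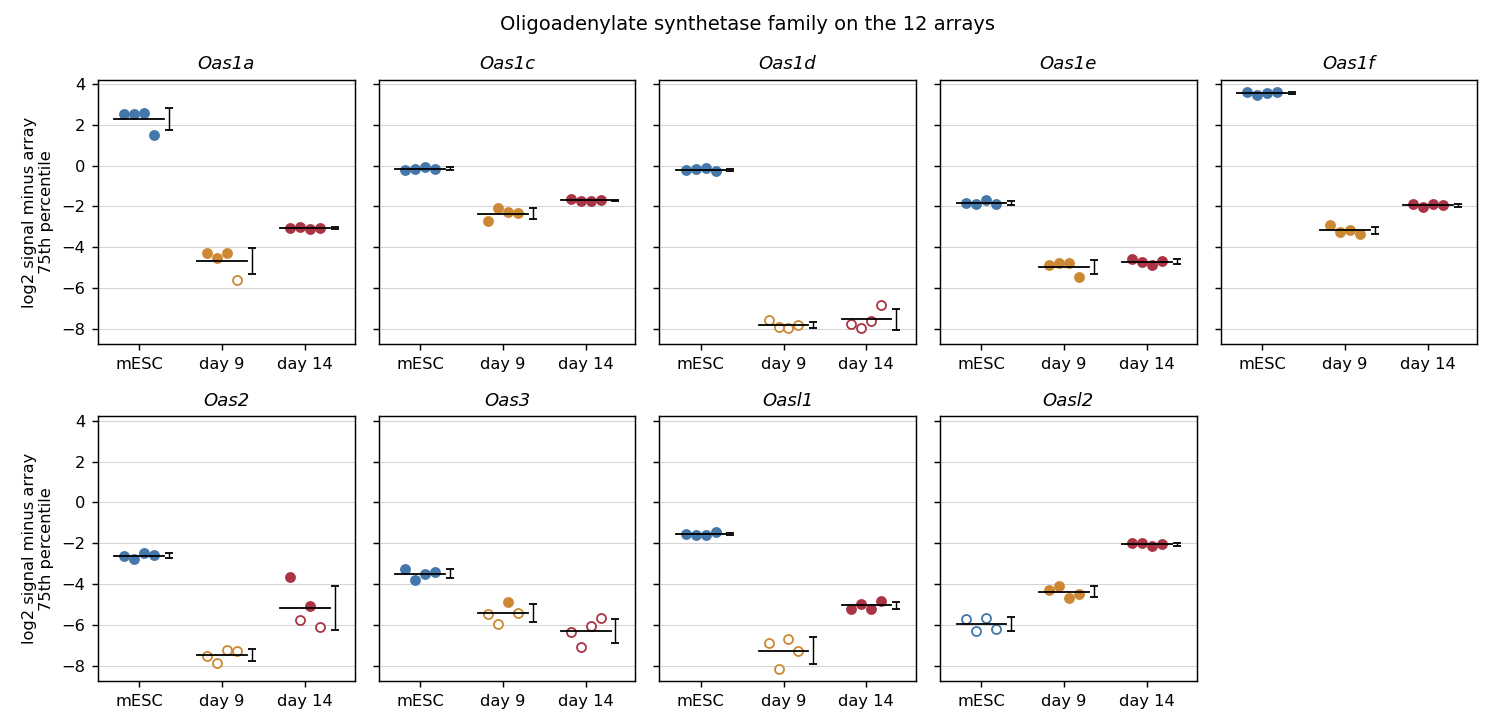
Each panel shows 1 gene of the oligoadenylate synthetase family on the 12 arrays as log2 processed signal minus the array's 75th percentile (y axis) by group. Points are arrays, open where not well above background, lines are means and bars are the SD of 4 arrays. All panels except Oasl2 have their highest arrays in mESC.

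In the IFIT and IFITM families 1 of 6 genes was higher and 3 lower at day 9, 1 and 2 at day 14, and 2 and 0 between the days. Ifit2, a neighbour of Ifit1 and Ifit3, rose by 3.76 ± 0.26 and 3.45 ± 0.26 against mESC. Ifitm1, which encodes a membrane protein that hinders virus entry, fell by 2.37 ± 0.18 and 3.25 ± 0.18. Ifitm3 fell by 1.57 ± 0.09 at day 9 and rose by 1.29 ± 0.09 between the days.

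The genes for attaching and removing ISG15 rose along with Isg15. Of the 4 tested, 3 were called higher than in mESC at day 9, all 4 at day 14, and 1 rose from day 9 to day 14. Uba7, the activating enzyme for ISG15, rose by 5.32 ± 0.06 and 6.01 ± 0.06. Usp18, the protease that removes ISG15, was at least 3.78-fold and at least 6.13-fold higher. Ube2l6, the conjugating enzyme, rose by 1.72 ± 0.06 at day 14, and the ligase gene Herc6 was at least 1.97-fold higher at day 9 and at least 1.37-fold at day 14.

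Of 28 other antiviral effectors, 10 were higher and 6 lower at day 9, 17 and 4 at day 14, and 10 and 1 between the days. Gbp2 and Gbp3, guanylate-binding proteins that answer to interferon gamma, were at least 19.2-fold and 9.96-fold higher at day 9 and at least 26.4-fold and 10.8-fold higher at day 14. Irgm1, an immunity-related GTPase, was called higher on both days from a probe below background in mESC. Another Irgm1 probe was above background on some mESC arrays, so no size is given. Iigp1 was at least 30.8-fold higher at day 9 and at least 12.0-fold higher at day 14. Ifi27 and Ifi27l2a rose by 3.68 ± 0.11 and 3.27 ± 0.09 between the days.

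Genes of antigen presentation were called higher in 3 of 16 cases and lower in 3 at day 9, in 7 and 2 at day 14, and in 8 and 0 between the days. Psmb8, a subunit of the immunoproteasome, rose by 4.05 ± 0.26 at day 14 against mESC and by 3.05 ± 0.26 between the days. B2m, the light chain of class I molecules, rose by 2.38 ± 0.07 at day 14. Ciita, the master factor of class II genes, fell by 4.11 ± 0.19 and 2.97 ± 0.19 against mESC.

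Of 11 genes listed as negative regulators of the pathway, 5 were called lower on each day against mESC. At day 9, 0 were higher, and at day 14, 1 was. The list holds Isg20l2, which is not an established regulator of the pathway and was not called in any comparison. Between the days 2 were higher and 0 lower. Trim28 and Setdb1, which silence endogenous retroviruses in stem cells, fell by 1.64 ± 0.04 and 1.66 ± 0.07 at day 14. Socs3, an inhibitor of Janus kinases, fell by 1.44 ± 0.09 at day 9, and Ptpn6, a phosphatase of blood cells, by 2.35 ± 0.07.

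Markers of macrophages, cells that express many of these genes, moved with the comparison of the 2 days. Of 18 such markers 18 were called higher at day 14 against day 9 and 16 higher and 1 lower against mESC, while at day 9 against mESC 2 were higher and 4 lower. Their summed level, in units of the array's 75th percentile, was 3.69 to 4.20 in mESC, 0.744 to 0.987 at day 9 and 27.7 to 34.4 at day 14. Most of the mESC sum came from Laptm5 and Cd68, at 0.89 and 0.51 on the log2 scale, which were named after their values were seen and were called lower at day 9. Adgre1, the macrophage antigen F4/80, was not well above background on any mESC or day 9 array, and Ptprc, the pan-leukocyte antigen CD45, was so by its tested probe on 0 of 4 mESC and 1 of 4 day 9 arrays. Csf1r and Tyrobp were above background on all day 9 arrays, at least 4.54-fold and 2.91-fold above mESC, and at least 64.8-fold and 299-fold above mESC at day 14.

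The macrophage markers rose alongside the gains of Ifih1, Oasl2, Isg15, Irf7 and the other pathway genes between day 9 and day 14. At day 9 against mESC the list did not rise as a whole. Csf1r and Tyrobp were the 2 of 18 called higher, while 4 were called lower. The part of macrophages in these results was not tested. In RNA of whole cultures, more cells of a type and more RNA per cell cannot be told apart. Of 8 tested markers of lymphocytes or plasmacytoid dendritic cells 0 were called higher in any comparison, and at an unadjusted p under 0.05 in limma 0, 0 and 1 were higher. Markers of other cell types moved too, and their part was not tested either. Of 9 fibroblast markers 8 were called higher and 1 lower than in mESC on each day. From day 9 to day 14, 4 were called higher and 1 lower. For the endothelial list of 9 the calls higher in these 3 comparisons were 7, 6 and 0, and the calls lower were 1, 1 and 6. For the hepatocyte-like list of 6 the calls higher were 6, 6 and 4, with 0 lower.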

How the data were processed

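Each array was extracted with Agilent Feature Extraction 12, per the submitters' processing notes. The deposited processed signal is an intensity, a spot's brightness after background subtraction and not scaled between arrays, per the file headers. The deposited median and local background signals are uncorrected intensities, and the other deposited columns used are flags of 0 or 1 for spots well above background, saturated or outlying, per the file headers. The series' own value table held the same intensities as deposited, with 0 differing values.

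Control and outlier spots were left out, spots of a probe were averaged on the log2 scale, and each array's log2 signal was reduced by its 75th percentile. Probes well above background on at least 3 of 4 arrays of a group were tested, and the brightest tested probe stood for a gene. Of 41174 probes, 28223 were named through accessions in RefSeq's GRCm38.p6 annotation and 12951 were not. The array's own annotation refers to an older build, so coordinates are given for promoter windows only. Group means over all 12 arrays were compared with limma 3.58.1 in R 4.3.3, two-sided, with Benjamini-Hochberg adjustment over 20875 genes, of which 10 had a missing value on some array. The fit was tested on simulated data. Errors are SE unless stated.

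The rule for naming took all 9 genes, up to 4 called genes of largest change per pathway list and comparison, 3 genes of most similar profile each, and 8 defining markers, and the text gives some of them. The 9 genes and all lists were chosen with earlier results of these data known. Some genes of the lists are not reported here. The alternatives were another background correction (normexp, offset 50, on the median signal because no mean signal column was at hand), quantile and median scaling, 2 other filters, 2 other treatments of multiple probes, fits on 8 arrays, with an intensity trend and with replicate number as a block, the series' value table and each array left out. Alternatives for the other pathway genes and the second probes were added after seeing the data.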

Additional observations from a re-analysis of the deposited data

Results flagged for a closer look

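In 24 sets of 4 arrays, 1 per probe and group, an array was marked when its gap to the nearest other exceeded 0.829 of the set's range, which chance does in about 1 set of 20. In mESC, replicate 4 had an Oas1a level of 1.49, where the nearest array had 2.52 and the highest 2.59, a gap of 0.938 of the range. Without that array Oas1a stayed called in all 3 comparisons. At day 14, replicate 1 had an Irf7 level of −6.24 and was below background, where the others lay between −5.61 and −5.59, a gap of 0.980 of the range. Without it Irf7 stayed called at day 14 in both comparisons.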

How the results depend on the processing

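Each result was recomputed under 23 alternatives. With normexp background correction the 9 genes gave 2 and 5 calls on day 9 and day 14 against mESC and 2 from day 9 to day 14 (6, 7 and 5 as reported), and all genes gave 4750, 5836 and 1226 (8565, 9783 and 2880). With only genes above background on all 12 arrays, which of the 9 leaves Irf1 and Stat2, the 9 genes gave 0, 0 and 0 calls and all genes 5483, 6430 and 1305. When single arrays were left out, the 9 genes gave 6 to 6, 7 to 7 and 5 to 5 calls and all genes 8544 to 8631, 9755 to 9803 and 2839 to 2924. Of 600 values of single genes among the 9, none reversed a call, 9 lost it, all with normexp, and 1 gained it, Stat2 at day 14 with median scaling. Scaling by the median moved the median of all genes to −0.29, −0.51 and −0.28, and split the calls over all genes into 3987 higher and 6986 lower at day 14 against mESC (4750 and 5033 as reported) and 1745 and 1220 between the days (2126 and 754). The other pathway genes gave 15, 28 and 13 calls higher and 24, 13 and 0 lower with normexp, and 13, 29 and 21 higher above background on all arrays. With the replicate number as a block the 9 genes gave 6, 7 and 5 calls and all genes 8564, 9783 and 2876. The numbers do not pair the samples, as deviations of same-numbered arrays correlated by more than 0.1 in 1 of 12 pairs. Signals near background limit the size of the changes against mESC.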
